A study of Mus musculus with 12 samples.

Results

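The hedgehog receptors and GLI factors described here are 9 genes, Ptch1, Smo, Gli1, Gli2, Gli3, Sufu, Hhip, Gas1 and Boc, out of 19429 genes listed in either deposited table. They were chosen by symbol and by having a row in both tables, and a table lists a gene only where its signal was above 0 in all 6 of its libraries. Messenger RNA was measured in 12 libraries of cultured primary stromal vascular cells from white fat of C57BL/6 mice aged 6 weeks, in 4 groups of 3. The stromal vascular fraction is what remains of fat tissue once the adipocytes are removed, and it holds the progenitors of adipocytes. WT cells were wild type, and TKO cells were -/- for miR-26b, miR-26a-2 and miR-26a-1, all 3 miR-26 genes. CTL and Dox cells both carried M2rtTA, a doxycycline-dependent activator, and an eGFP.miR-26a transgene. Dox cells were given doxycycline at 1 mg/ml for 4 days and CTL cells were untreated, so that CTL is a control for treatment and not for the transgenes. No group of transgene-free cells on doxycycline was analysed here, so an effect of the drug and one of miR-26a cannot be told apart. The promoter that drives M2rtTA is not given in the sources used here. Whether replicates came from separate animals or cultures is not stated in the labels, so p-values measure the spread between these libraries, which may be technical. The gene set was proposed with results of these data known, so the values below describe its genes and are no independent evidence of a direction.

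Hedgehog ligands bind PTCH1, which in their absence holds the membrane protein SMO inactive. Ligand binding lets SMO enter the primary cilium and release the GLI transcription factors from SUFU and from the kinases that turn them into repressors. GAS1, BOC and CDON help the ligand bind PTCH1, whereas HHIP binds the ligand and takes it away. GLI1 and PTCH1 are themselves targets of the pathway and are commonly used as readouts of its activity. In fat progenitors hedgehog signalling is known as a brake on adipocyte formation.

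The study set out to remove or raise miR-26, a microRNA family that pairs with target messenger RNAs through its seed (bases 2 to 8). The mature sequences, from RefSeq (GRCm38.p6), are shown with the seed in capitals, because the 3' untranslated regions of the 9 genes were searched for matches to it.
mmu-miR-26a-5p: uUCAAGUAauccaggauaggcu
mmu-miR-26b-5p: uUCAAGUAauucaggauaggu
The miR-26a sequence is encoded on chromosome 9 (start 119031811, end 119031832, plus strand) and again on chromosome 10 (start 126995543, end 126995564, plus strand). The miR-26b sequence is on chromosome 1 (start 74394324, end 74394344, plus strand), and both mature forms share the seed UCAAGUA. The search used TACTTGA (pairing with bases 2 to 8) and ACTTGAA (pairing with bases 2 to 7, followed by A), which overlap in the 8-base form TACTTGAA. On the transcribed strand 0 of the 9 genes held a match in the annotated 3' untranslated region of any of their coding transcripts. Among genes tested in TKO against WT that have such a region, 21.8% of 11834 held at least 1 match. The search found 2 matches in Fbxl19, the target that the series names. No match says only that these letters are not in these annotated regions.

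Compared per transcript length, the ligand co-receptor Gas1 was the highest of the 9 genes and Gli1 the lowest. In reads per kilobase of transcript and per 1000000 reads, over all 12 libraries, Gas1 averaged 54.6 and Smo 31.3. Boc averaged 10.5, Sufu 8.07, Gli3 6.57, Gli2 4.48 and Ptch1 2.67, while Hhip stood at 0.62 and Gli1 at 0.10. The 2 tables were normalized apart, so levels set across them are a description. Across the 4 groups the order of the group means rarely separated neighbours. For Ptch1 the Dox libraries (3.40 to 4.66) lay above those of the other 3 groups, whose ranges overlapped. This scale uses total reads and not the deposited scaling. On it each group of the other 8 genes overlapped its neighbour in the order. Gli3, for example, ran from WT through CTL and Dox to TKO. WT and TKO, not neighbours there, did not overlap for Gli3 (WT 7.30 to 7.74, TKO 4.76 to 6.49). The same held for Gli2 (WT 4.94 to 5.87, TKO 3.51 to 4.70). It also held for Gli1, with TKO above WT (WT 0.038 to 0.081, TKO 0.083 to 0.143). For Smo they overlapped (WT 29.4 to 30.5, TKO 27.0 to 30.0). With the length of all exons joined in place of 1 transcript, Ptch1 (1.45), Smo (21.0) and Sufu (4.75) came out lower by more than 1 SD over the libraries. Gli3 (5.60), Gli2 (4.33) and Gli1 (0.08) were lower too, and Sufu then stood below Gli3 in the order.

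**Figure D1:**
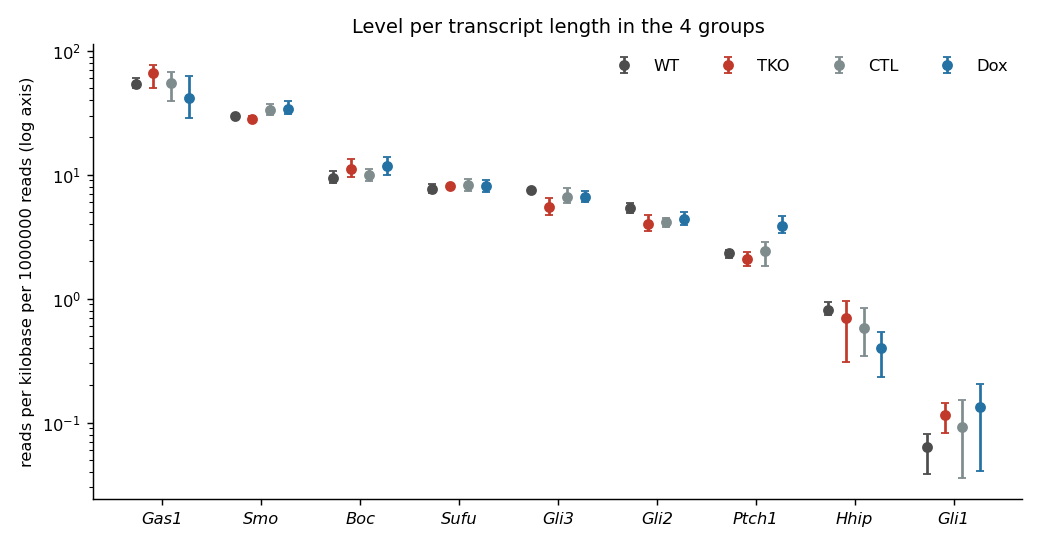
Level of each of the 9 genes in reads per kilobase per 1000000 reads (log axis) in the 4 groups. Points are means of 3 libraries and bars run from the lowest to the highest library; Gas1 is highest and Gli1 lowest, and Ptch1 is the gene whose Dox range lies clear of the other groups.

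In cells without miR-26, 2 of the GLI factors and the signal transducer Smo were lower than in wild-type cells. The mean signal of Gli3 fell by 32.7%, that of Gli2 fell by 31.9% and that of Smo fell by 13.5%. Values from here on are deposited signals, which are read counts scaled per library, and log2 fold changes are of signal + 1. Every gene that reached a signal of 1 in 3 or more of a table's 6 libraries was tested with limma, at an adjusted p under 0.05. Of the 9 genes 8 were tested and Gli1 was not. Lower calls numbered 3 of 8, against 22.7% of all 12649 genes tested, and higher calls 0 of 8, against 23.2%. Calls in either direction thus took 37.5% of the tested receptors and GLI factors and 45.8% of all genes, so the share called does not set these genes apart. Their median log2 fold change was -0.23, and that of all genes tested was -0.00.

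**Figure D2:**
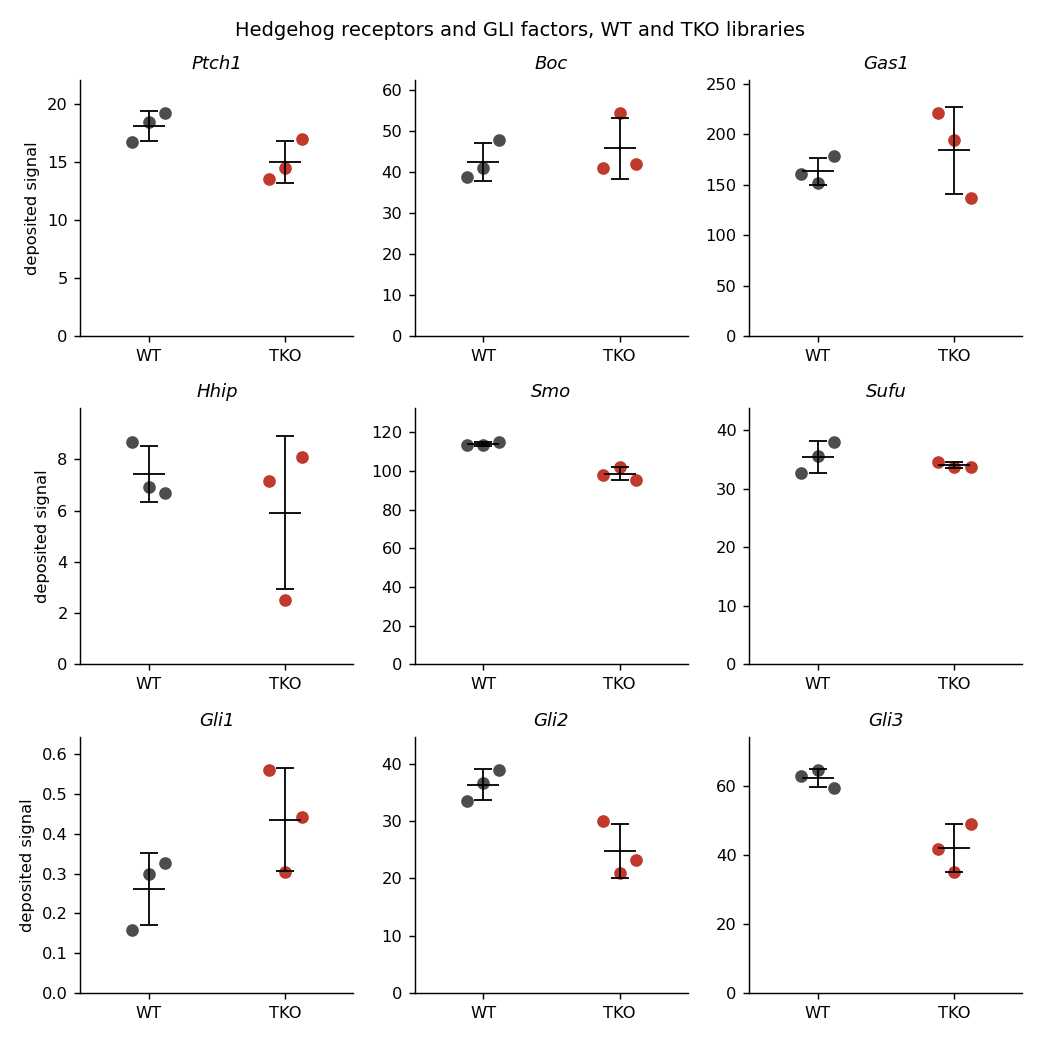
Deposited signal of the 9 genes in the 3 WT and 3 TKO libraries, each axis starting at 0. Points are libraries and bars are the mean ± SD; the TKO points of Smo, Gli2 and Gli3 all lie below the WT points, and those of the other 6 genes overlap.

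Gli3 (ENSMUSG00000021318.15; GRCm38 chromosome 13, start 15463235, end 15730026, plus strand) encodes the GLI factor that acts mainly as the repressor of the pathway. Its signal was 62.9, 64.6 and 59.5 in WT replicates 1 to 3 and 41.8, 35.1 and 49.0 in TKO replicates 1 to 3. All TKO libraries lay below all WT libraries, and TKO replicate 2 was the lowest. The fold change (log2) was -0.57 ± 0.12 (SE) at a limma adjusted p of 0.0091, and the call held without any one of the 6 libraries. In all, 188 bases of its exons overlap Gm6556 on the other strand, and the strand setting of the counting is not given in the sources used here.

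Gli2 (ENSMUSG00000048402.14; chromosome 1, start 118834132, end 119053619, minus strand) encodes the main activator among the GLI factors when ligand is present. WT replicates 1 to 3 had signals of 33.5, 36.7 and 38.9, and TKO replicates 1 to 3 had 30.0, 21.0 and 23.3. The groups did not overlap, although TKO replicate 1 came close to WT replicate 1. On the log2 scale Gli2 differed by -0.55 ± 0.14 (SE) at a limma adjusted p of 0.016. It no longer passed without WT replicate 2 (adjusted p = 0.059) or without WT replicate 3 (adjusted p = 0.057).

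Smo (ENSMUSG00000001761.7; chromosome 6, start 29735503, end 29761365, plus strand) encodes the transducer that PTCH1 restrains. Other genes hold 2.33% of its 50-base stretches, against 0% for the other 8 genes, so a small part of its reads may be uncertain. Its signal was 113, 113 and 115 in the WT libraries and 98.2, 102 and 95.4 in the TKO libraries. Replicates lay close together and the groups did not overlap, so a difference of 13.5% in the means gave a limma adjusted p of 0.021 (log2 fold change -0.21 ± 0.05, SE). The call was lost without any one WT library (adjusted p = 0.064, 0.078 and 0.073 without replicates 1 to 3). It was also lost when libraries were scaled to their total reads (log2 fold change -0.08, limma adjusted p = 0.33), a scaling that moved the median of all genes tested to 0.11. Under that scaling Gli3 (-0.45) and Gli2 (-0.43) stayed past the threshold, with 15.1% of all genes called lower. With the replicate number as a block, 2 of 8 were called lower (Gli3 and Gli2), against 19.7% of all genes.

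Those 3 genes were also the ones whose WT and TKO libraries did not overlap, 3 of 8 tested, against 29.4% of all genes with every TKO library below every WT library. Fold changes in this comparison also moved with transcript length and GC content over all genes (Spearman correlation across genes -0.32 and 0.31). With that trend removed, the log2 fold changes were -0.37 for Gli3, -0.57 for Gli2 and -0.33 for Smo, and all 3 stayed past the threshold of limma, by which 23.4% of all genes were then lower. In the authors' deposited table the log2 fold changes were -0.57 for Gli3, -0.55 for Gli2 and -0.21 for Smo. The false discovery rates there were 0.0022, 0.011 and 0.29, so that Smo was not called in the authors' deposited table.

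The receptor Ptch1 (ENSMUSG00000021466.12; chromosome 13, start 63508328, end 63573598, minus strand) did not pass in TKO against WT. Its signal was 16.7, 18.5 and 19.2 in WT and 13.5, 14.5 and 17.0 in TKO, and TKO replicate 3 reached into the WT range. The difference of -0.26 ± 0.10 (log2, SE) had a limma adjusted p of 0.083, and without TKO replicate 3 it passed (adjusted p = 0.029). It was -0.10 (limma adjusted p = 0.46) after removal of the length and GC trend and -0.14 (limma adjusted p = 0.36) with total read scaling. Sufu, the cytoplasmic inhibitor of the GLI factors (ENSMUSG00000025231.16; chromosome 19, start 46396896, end 46488804, plus strand), had signals of 32.7, 35.6 and 38.0 in WT and 34.6, 33.7 and 33.7 in TKO. The TKO libraries lay inside the WT range, with a log2 fold change of -0.05 ± 0.07 (SE) that became 0.07 when scaled to total reads.

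The ligand-binding proteins varied between libraries more than between genotypes. Gas1 (ENSMUSG00000052957.8; chromosome 13, start 60174405, end 60177365, minus strand) had signals of 160, 152 and 178 in WT and 221, 195 and 137 in TKO. TKO replicates 1 and 2 were above all WT libraries and TKO replicate 3 was below them, which gave 0.15 ± 0.18 (SE, limma adjusted p = 0.53). Without TKO replicate 3 it was 0.34 (adjusted p = 0.037), and after removal of the length and GC trend it was -0.04. Of the 2961 exon bases of Gas1, 589 overlap Gm48488 on the other strand. Boc, a co-receptor of the immunoglobulin family (ENSMUSG00000022687.12; chromosome 16, start 44485049, end 44558897, minus strand), had signals of 38.8, 40.8 and 47.7 in WT and 41.0, 54.3 and 41.9 in TKO. The groups overlapped, and the log2 fold change was 0.10 ± 0.13 (SE). Hhip, the decoy receptor (ENSMUSG00000064325.4; chromosome 8, start 79965851, end 80058006, minus strand), had signals of 8.69, 6.90 and 6.68 in WT and 7.13, 2.51 and 8.10 in TKO. TKO replicate 2 alone was low, and the log2 fold change of -0.39 ± 0.35 (SE) was 0.04 without it. Its exons overlap Gm27820 on the other strand over 175 bases.

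Gli1, the transcriptional readout of the pathway (ENSMUSG00000025407.7; chromosome 10, start 127329882, end 127341974, minus strand), was close to the limit of counting in all 12 libraries. It had 9, 18 and 18 reads in the WT libraries and 44, 24 and 40 in the TKO libraries, among 54978109 to 83461531 reads per library. As signal these were 0.16, 0.30 and 0.33 in WT and 0.56, 0.30 and 0.44 in TKO, so the groups overlapped. On the scale of total reads per length the TKO libraries (0.083 to 0.143) lay just above the WT libraries (0.038 to 0.081). CTL had 15, 7 and 3 reads and Dox had 16, 16 and 4, among 19301969 to 25785439 reads per library. No library reached the signal of 1 that the test required, so no fold change was fitted here. In the authors' deposited table Gli1 had log2 fold changes of 0.73 in TKO (false discovery rate 0.48) and 0.51 in Dox. It was called in neither. Its exons overlap Arhgap9 and Gm47200 on the other strand over 327 bases, and without the strand setting reads of the 3 genes cannot be told apart there.

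In Dox against CTL, Ptch1 was the gene of the 9 that differed most. Its signal was 19.1, 20.8 and 13.8 in CTL replicates 1 to 3 and 35.0, 25.8 and 26.6 in Dox replicates 1 to 3. All Dox libraries lay above all CTL libraries, and the means were 17.9 ± 3.64 and 29.1 ± 5.09 (SD, n = 3 each), a ratio of 1.63. On the log2 scale the difference was 0.68 ± 0.18 (SE), at a limma adjusted p of 0.62. In this comparison limma called 0 of 12634 genes, 0% in either direction, while 748 genes (5.92%) had an unadjusted p under 0.05, edgeR called 0 and DESeq2 99 (0.784%). Ptch1 stood at rank 162 by p. A pattern of all Dox libraries above all CTL libraries was seen in 1 of the 8 tested receptors and GLI factors and in 6.5% of all genes.

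Same-numbered CTL and Dox libraries deviated together, so the comparison was also fitted with the replicate number as a block. With that pairing the Ptch1 difference passed (log2 fold change 0.68 ± 0.12, SE, limma adjusted p = 0.033), as 1 of 71 genes called higher, 0.562% of those tested. The Dox to CTL ratios of the 3 pairs were 1.83, 1.24 and 1.93. Pair 2 had the smallest increase, and the call was lost without pair 1 (adjusted p = 0.070). In the authors' deposited table the log2 fold change of Ptch1 was 0.70 with a false discovery rate of 0.95.

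**Figure D3:**
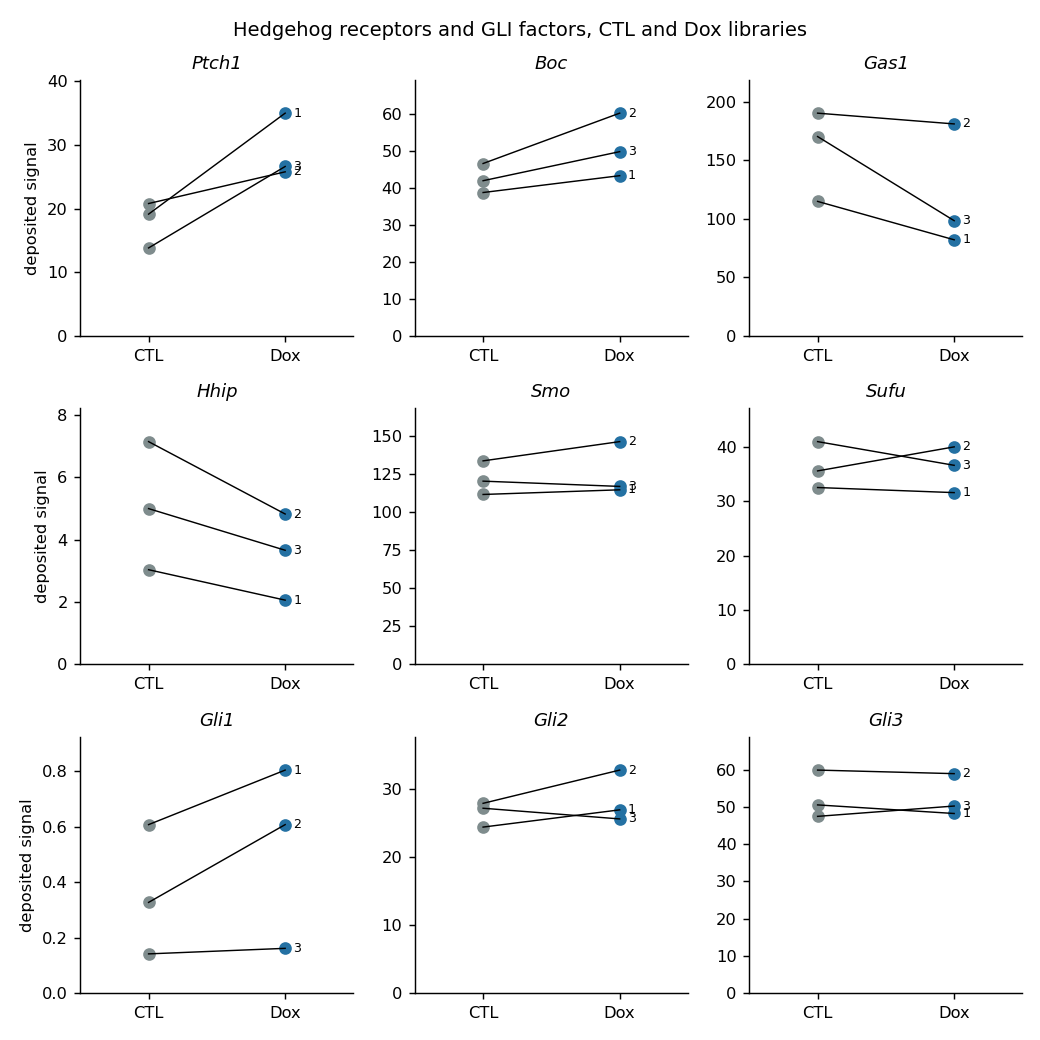
Deposited signal of the 9 genes in the 3 CTL and 3 Dox libraries, each axis starting at 0. Lines join libraries with the same replicate number (1, 2 or 3, printed at the Dox point); the lines of Ptch1, Boc and Gli1 all slope up, those of Gas1 and Hhip all slope down, and for Ptch1 alone of the tested genes the groups do not overlap.

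The ligand-binding proteins shifted in the same direction in every pair without passing the test. Boc had signals of 38.8, 46.6 and 42.0 in CTL and 43.3, 60.2 and 49.8 in Dox, higher in 3 of 3 pairs (log2 fold change 0.25 ± 0.14, SE, and adjusted p = 0.15 by limma with the block). Gas1 had signals of 115, 190 and 170 in CTL and 82.1, 181 and 98.4 in Dox, lower in 3 of 3 pairs. Its log2 fold change was -0.45 ± 0.32 (SE), with an adjusted p of 0.090 by limma with the block. Replicate 2 was the highest in both groups and hardly differed within its pair. Hhip had signals of 3.04, 7.15 and 5.0 in CTL and 2.06, 4.83 and 3.66 in Dox, also lower in 3 of 3 pairs (log2 fold change -0.42 ± 0.33, SE, and adjusted p = 0.11 by limma with the block). All 3 genes overlapped between the groups. When the length and GC trend was removed as well as pairing the libraries, Boc (0.26, limma adjusted p = 0.037) and Gas1 (-0.46, limma adjusted p = 0.018) passed too, in a fit that called 7.36% of all genes.

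The genes that were lower in TKO did not pass in Dox against CTL with or without the block. Gli3 had signals of 50.6, 59.9 and 47.5 in CTL and 48.3, 59.0 and 50.3 in Dox, with a log2 fold change of -0.00 ± 0.12 (SE). Gli2 had 24.4, 27.9 and 27.2 in CTL and 27.0, 32.8 and 25.6 in Dox (0.09 ± 0.12, SE). For both, replicate 2 was the highest library of its group, and the groups overlapped. Smo had 111, 133 and 120 in CTL and 114, 146 and 117 in Dox (0.04 ± 0.12, SE). Sufu had 32.5, 35.6 and 41.0 in CTL and 31.6, 40.0 and 36.6 in Dox (-0.01 ± 0.13, SE). Each of these standard errors is large enough that changes of a size like that of Smo in TKO would not have stood out. Without the block 0 genes passed, Ptch1 at 0.68 among those that did not. A change as large as that of Gli3 or Gli2 in TKO thus need not have been called in that fit. The 2 comparisons share no library, and whether a gene's change differed between them was not tested, since the tables were normalized apart.

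The rest of the pathway was read from 8 lists of 61 genes, 53 of them tested in TKO against WT. There 10 were higher and 12 lower by limma (41.5%, against 45.8% of all genes), with a median log2 fold change of -0.07. Of the ligands Dhh and Ihh were listed, with signals of at most 0.864 and 0.067, and neither reached the level for testing. Among 4 tested genes of ligand acylation and release 1 was lower, Disp1 (-0.76, limma adjusted p = 0.011), which exports ligand from the cells that make it. Among 4 other receptors and ligand-binding proteins 2 were lower, the glypican Gpc3 (-0.51, limma adjusted p = 0.037) and the co-receptor Cdon (-0.18, limma adjusted p = 0.039). Neither passed with total read scaling (-0.39 and -0.06, limma adjusted p = 0.072 and 0.54), and after removal of the length and GC trend Gpc3 passed (-0.56) while Cdon stood at 0.01. The call of Gpc3 was lost without any one library other than TKO replicate 1 (adjusted p of 0.058 to 0.12 by limma), and that of Cdon without any one other than TKO replicate 2 (0.078 to 0.13).

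Regulators of SMO at the membrane and cilium included 5 higher and 0 lower of 10 tested, against 23.2% and 22.7% of all genes tested. Their median log2 fold change was 0.19. The higher genes include Efcab7 (0.88), Mgrn1 (0.39) and Tulp3 (0.26). MGRN1 is a ubiquitin ligase that promotes the removal of SMO from the cell surface, whereas EFCAB7 anchors the EVC complex that transmits its signal. Among 11 GLI regulators 3 were lower and 0 higher: Cul3 (-0.53), which degrades GLI proteins together with SPOP, and the kinases Gsk3b (-0.50) and Prkacb (-0.22), which mark them for processing. With the length and GC trend removed Cul3 (-0.25) and Gsk3b (-0.26) still passed and Prkacb (-0.07) did not. In that fit Prkaca was called lower too (-0.28, limma adjusted p = 0.0037) and Fbxw11 higher (0.20, limma adjusted p = 0.017). The list then held 1 higher and 3 lower. Prkacb was also lost with total read scaling (-0.09), under which the list held 2 higher and 2 lower, and without any one library other than TKO replicate 1 (adjusted p of 0.062 to 0.11 by limma). Of 13 genes of ciliary transport 3 were higher and 5 lower, among them the motor subunit Kif3a (-1.04) and Ift57 (-0.60), Ift20 (0.65) and Ift81 (-0.51). Of 8 reported target genes 2 were higher, Rab34 (1.05) and Mycn (0.80), and 0 lower, against 23.2% and 22.7% of all genes tested. The median log2 fold change of these 8 was -0.20, and it was 0.04 without TKO replicate 2. Mycn rested on a signal of at most 4.29 and was lost without WT replicate 1 or 3 or TKO replicate 2 or 3 (adjusted p of 0.054 to 0.086 by limma). Of 3 inhibitors of adipogenesis linked to hedgehog signalling, Nr2f2 was lower (-0.75), and Gata2 and Gata3 did not pass. Scaling to total reads, which raised the median gene by 0.11, gave 15 higher and 8 lower of the same 53 genes. With the length and GC trend removed there were 14 higher and 10 lower, ciliary transport held 6 higher and 4 lower, and the median of the Smo regulators was 0.11. The balance of directions over the 53 genes thus rests on the scaling and on that correction. The Smo regulators held 5 higher and 0 lower with that trend removed or with the replicate block. With total read scaling they held 7 higher and 0 lower, where 3824 of all 12649 genes were called higher.

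In Dox against CTL 0 of 54 tested pathway genes passed in limma without the block, and 1 passed with it, the kinase subunit Prkaca (-0.43, limma adjusted p = 0.032). Of the genes that did not pass, Hhat is given after its values were seen. Hhat, which attaches palmitate to the ligands, had signals of 9.08, 9.48 and 11.2 in CTL and 12.8, 12.9 and 14.6 in Dox (0.41 ± 0.12, SE, and adjusted p = 0.074 by limma with the block).

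**Figure D4:**
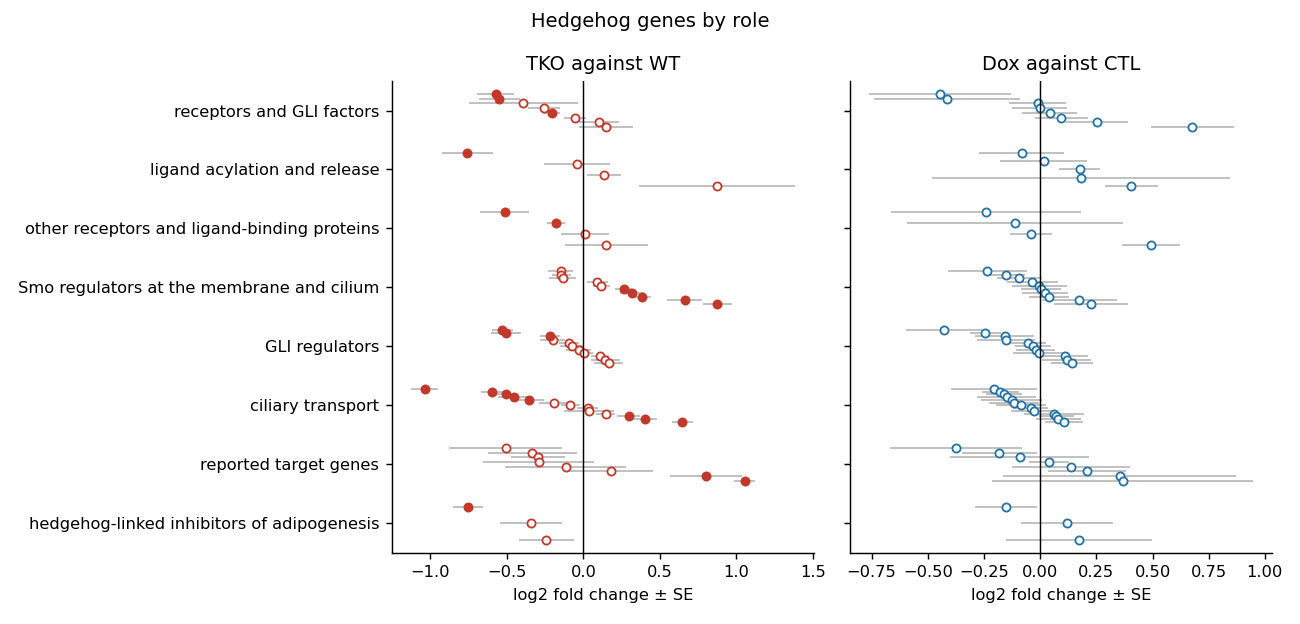
Log2 fold change ± SE of the tested receptors and GLI factors and of 7 lists of other pathway genes, in TKO against WT (left) and Dox against CTL (right). Filled points have a limma adjusted p under 0.05 without the replicate block. Regulators of Smo hold 5 higher and 0 lower calls on the left, against 23.2% and 22.7% of all genes tested. On the right 0 genes are filled.

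Promoters are shown for Gli3 and Gli2, which were lower together in TKO, and for Ptch1, the gene that was higher in Dox. The windows run from 250 bases before to 50 after the RefSeq start (GRCm38.p6), 5' to 3' on the gene's strand. Those of Gli3 and Ptch1 lie inside the annotated genes, whose 5' ends are farther upstream, at 15463235 and 63573598. Windows at those 5' ends were not searched. Capitals mark the GC box GGGCGG, a site bound by SP1-family factors, on either strand.
Gli3 (chr13:15463473-15463772, plus strand): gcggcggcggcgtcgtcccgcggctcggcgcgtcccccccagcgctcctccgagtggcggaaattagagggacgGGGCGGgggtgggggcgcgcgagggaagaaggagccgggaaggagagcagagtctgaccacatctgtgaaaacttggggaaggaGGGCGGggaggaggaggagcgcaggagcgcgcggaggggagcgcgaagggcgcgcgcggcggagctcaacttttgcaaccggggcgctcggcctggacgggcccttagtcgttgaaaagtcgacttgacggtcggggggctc
Gli2 (chr1:119053570-119053869, minus strand): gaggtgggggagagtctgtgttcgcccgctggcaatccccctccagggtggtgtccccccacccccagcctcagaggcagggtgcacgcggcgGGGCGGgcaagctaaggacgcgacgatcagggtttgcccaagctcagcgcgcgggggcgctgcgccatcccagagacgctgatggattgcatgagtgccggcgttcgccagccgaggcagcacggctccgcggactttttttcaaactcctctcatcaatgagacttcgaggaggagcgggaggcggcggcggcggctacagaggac
Ptch1 (chr13:63565686-63565985, minus strand): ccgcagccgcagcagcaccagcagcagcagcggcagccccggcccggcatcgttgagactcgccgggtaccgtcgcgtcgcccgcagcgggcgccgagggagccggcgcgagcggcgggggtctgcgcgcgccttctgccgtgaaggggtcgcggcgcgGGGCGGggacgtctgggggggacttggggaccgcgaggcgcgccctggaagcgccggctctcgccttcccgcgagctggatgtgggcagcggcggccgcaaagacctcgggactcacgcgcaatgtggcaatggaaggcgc
RefSeq windows matched 7 of the 9 genes, all but Gli1 and Boc. The 9-letter GLI motif GACCACCCA was searched on both strands and had 0 matches in each of the 7 windows, also when 1 mismatch was allowed. Of all 32851 windows 0.253% held it exactly and 6.74% with up to 1 mismatch. Gli3 held 2 GC boxes, Gli2 and Ptch1 1 each, and Smo 0, while 35.7% of all windows held at least 1. These matches are a description of letters and not of binding, and no match in 300 bases says nothing of sites farther away.

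Across the 12 libraries, centred on the mean of each table, the levels of Gli2 and Gli3 ran together (Pearson r = 0.80), and those of Smo and Gli3 somewhat less (r = 0.68). Ptch1 and Gas1 ran against each other (r = -0.62). Among 10155 genes the 3 most like Gli3 were Tcof1 (r = 0.96), Ep400 (r = 0.96) and Scaf8 (r = 0.96). The 3 most like Ptch1 were Pxdn (r = 0.95), Nemp1 (r = 0.93) and Fbn2 (r = 0.93). These coefficients are given without a test, as the genes share the same libraries, depth and scaling. Centring by table also leaves the differences between groups in r. For Gli2, Gli3 and Smo it thus partly restates that all 3 were lower in TKO. Fbn2, which encodes the matrix protein fibrillin-2, passed in neither comparison. It was at 0.77 ± 0.21 (SE, limma adjusted p = 0.62) in Dox and at -0.37 ± 0.15 (SE, limma adjusted p = 0.080) in TKO. Tcof1, a nucleolar factor, was at -0.54 ± 0.10 (SE, limma adjusted p = 0.0056) in TKO.

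Markers of the labelled cells were present throughout, with the 9 mesenchymal progenitor markers summing to 12133 to 14018 in WT and TKO and to 15933 to 20396 in CTL and Dox. Most of each sum is Col1a1 (9094 to 11756 in WT and TKO). Of the 9, Thy1 (-0.86, limma adjusted p = 0.0043) and Pdgfrb (-0.47, limma adjusted p = 0.017) were lower in TKO and 0 were higher. Their median log2 fold change was -0.19, and without TKO replicate 2 there were 5 lower. Ly6a went the other way (0.81, limma adjusted p = 0.081) and was called higher with the replicate block (limma adjusted p = 0.029). The list held 1 higher and 2 lower with that block, and also with total read scaling. Of the pericyte and smooth muscle, macrophage and adipocyte markers 0 passed in limma on the deposited signal of all 6 libraries. With the length and GC trend removed Acta2 was called lower (-0.55, limma adjusted p = 0.034). With total read scaling 1 adipocyte marker was called higher. Without TKO replicate 2, 1 macrophage marker was called lower and 1 pericyte and smooth muscle marker higher. The sums of these lists are given by library. The 4 pericyte and smooth muscle markers summed to 3080 to 3506 in WT and 1980 to 2981 in TKO, lowest in TKO replicate 2, and nearly all of each sum is Acta2 (-0.46, limma adjusted p = 0.054). The 6 macrophage markers summed to 247 in TKO replicate 2 and to between 34.7 and 54.6 in the other WT and TKO libraries. The 4 listed adipocyte markers summed to 115 and 112 in TKO replicates 1 and 2 and to between 28.1 and 30.9 in WT, with 28.9 in TKO replicate 3. Without TKO replicate 2 the calls of Gli3, Gli2 and Smo all held, at log2 fold changes of -0.45, -0.44 and -0.23. The endothelial (54.9 to 125), mesothelial (15.8 to 28.8), Schwann cell (7.46 to 13.9) and epithelial (0.457 to 76.6) sums overlapped between WT and TKO. The part of all these cells in the differences of Gli3, Gli2 and Smo was not tested. In bulk libraries, fewer cells of a type and less RNA per cell cannot be told apart. In CTL and Dox the 4 epithelial markers were highest in replicate 1 of both groups (153 and 167) and between 4.43 and 40.4 elsewhere. The 4 endothelial markers summed to 101, 76.2 and 63.2 in CTL and 132, 90.1 and 75.4 in Dox, higher in Dox in each pair. They did not move together: Kdr and Pecam1 were higher in Dox in each pair, and Tek was lower in each. Tek had signals of 20.3, 23.4 and 21.6 in CTL and 18.8, 21.3 and 13.4 in Dox. Cdh5 was higher in pairs 1 and 2 and lower in pair 3 (5.05 in CTL, 4.55 in Dox). In the fit with the block that called Ptch1, the endothelial marker Kdr (0.51, limma adjusted p = 0.023) and the progenitor marker Dlk1 (0.39, limma adjusted p = 0.043) were higher, and the progenitor marker Ly6a (-0.60, limma adjusted p = 0.047) was lower. The part of these cells in the Ptch1 difference was not tested, and without replicate 1 the paired log2 fold change was 0.60.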

How the data were processed

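Polyadenylated RNA of 12 libraries, 3 per group, was sequenced as 75-base single reads from a stranded kit, per the labels. Per the submitters' processing notes, TopHat2 2.0.12, featureCounts 1.4.6 and edgeR 3.8.6 were used with GRCm38 (mm10), and StringTie 1.2.2 is listed without its role. The deposited signal is the read count per gene that the authors scaled by library. The deposited log2 fold changes, the p-value and false discovery rate columns and the likelihood ratio score came from the authors' test. Of these the log2 fold change and rate are quoted as from the authors' table, and the score was not used.

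Whole reads were recovered from the signal (100% of values within 0.1 reads in each library), 54978109 to 83461531 per WT or TKO library and 19301969 to 25785439 per CTL or Dox library. This depth sets the counting error only. limma 3.58.1 with a trend on mean level (R 4.3.3) was run on log2(signal + 1), without a block, for 12649 genes (WT and TKO) and 12634 genes (CTL and Dox). Benjamini-Hochberg adjustment was over all of them. edgeR 4.0.16 and DESeq2 1.42.0 on the recovered reads, other scalings, pseudocounts and filters, a replicate block, a length and GC correction and leaving out each library were alternatives. Between CTL and Dox libraries of equal number, deviations from the group means had correlations of 0.86, 0.58 and 0.74, so these numbers were taken to pair the libraries. The labels do not state this pairing, and since the columns of Dox replicates 2 and 3 carry the same sequencing-sample suffix it rests on the replicate number in the column names alone.

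Lengths, 3' untranslated regions and coordinates came from GENCODE vM21 (GRCm38) and sequences from RefSeq. Levels per length used the reads of the 16618 genes listed in both tables. Likeness was Pearson's r over 12 libraries among genes with a mean signal of at least 5 in both tables, and the 3 most like Ptch1 and Gli3 were named. In each pathway list up to 4 genes past the threshold were named, by smallest p. Some genes of these lists are counted but not reported here by name. The genes and all pathway and marker lists were chosen with earlier results of these data known. The fits were tested on simulated data.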

Additional observations from a re-analysis of the deposited data

How the results depend on the processing

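The fall of Gli3 in TKO passed the threshold under every alternative run except the block without replicate 1 (adjusted p = 0.10 by limma). Equal numbers in WT and TKO correlated at 0.45, -0.13 and -0.29, and with that replicate block Gli3 (limma adjusted p = 0.023) and Gli2 (0.036) passed and Smo (0.068) did not, nor did Cdon (0.10) and Prkacb (0.061). Leaving out 1 library gave 1 to 5 called receptors and GLI factors (2 without WT replicate 1, 1 without WT replicate 2 or 3, 5 without TKO replicate 3) and 3938 to 5723 genes in all. With the block and without replicates 1, 2 and 3 in turn these were 1, 1 and 2, and 1117, 3654 and 4468 genes. Sufu turned to 0.067 with total read scaling, and Gas1 to -0.037 with the length and GC trend removed, with or without the replicate block.

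In Dox against CTL 0 genes passed in any unpaired fit by limma or edgeR. DESeq2 called 99, the replicate block 265 and the block with the trend removed 930, holding 0, 1 and 3 of the receptors and GLI factors. With the block and without replicates 1, 2 and 3 in turn 134, 1534 and 591 genes were called, holding 0, 2 and 1, with 1 residual degree of freedom per gene. Without the block, leaving out 1 library gave 0 and 0.

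The other sign changes were all in genes not called. In TKO, leave-one-out ranges crossed 0 for Hhip (-0.65 to 0.039) and Boc (-0.027 to 0.18), in each case without TKO replicate 2, and with the block Gas1 (-0.012, without replicate 1), Boc (-0.052, without 2) and Sufu (0.0021, without 3). In Dox, leave-one-out ranges crossed 0 for Gli2 (-0.0099 to 0.16), Smo (-0.070 to 0.11), Sufu (-0.087 to 0.078) and Gli3 (-0.088 to 0.092). With the block they were Sufu (0.0032 without replicate 1, 0.062 without 3), Gli3 (0.029 without 1, 0.0071 without 2) and Smo (-0.0015 without 2). Levels per length moved beyond 1 SD for Ptch1 (1.45), Smo (21.0) and Sufu (4.75) when all exons set the length, which is then longer. The cause of the other changes was not tested.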
